A study of Homo sapiens with 4 samples.

Results

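The genes described here are 44 regulators and effectors of mitosis, covering entry into mitosis, chromosome condensation, anaphase, mitotic exit and cytokinesis. They were chosen by name from the gene names printed in the scanner files, and all 44 were found among the 43310 names on the array. Where a gene had several probes, the probe with the highest mean log2 signal over the 4 arrays stood for it. The array study itself asks what the microRNA miR-891b does to gene expression in cancer cells, in connection with PSAT1, an enzyme of serine synthesis, and the release of extracellular vesicles. The groups were 4: HCT116 cells (a colorectal cancer line) with NC1 or with miR-891b, and A549 cells (a lung cancer line) with NC1 or with miR-891b. NC1 is the negative control, and in all groups the RNA was delivered with Dharmafect1, a transfection reagent, so the control cells were transfected too. Each group has 1 array. No difference below therefore has a replicate check, and none is given a p-value. The dose of the RNA and the time from transfection to harvest are not given in the sources used here.

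Mitosis is driven by the kinase CDK1 bound to an A-type or B-type cyclin. WEE1 and PKMYT1 hold CDK1 inactive by phosphorylating it, and the CDC25 phosphatases remove those phosphates. Once active, CDK1 works with PLK1 and Aurora kinases to condense chromosomes and build the spindle, and the anaphase-promoting complex with CDC20 then destroys cyclin B and securin to let cells divide. Many of these genes are transcribed mainly late in the cell cycle, under B-MYB and FOXM1 bound to a promoter element called the cell cycle homology region, and are repressed through the same element in resting cells. Their mRNA levels in a culture therefore depend on how many cells are in that phase. In RNA of a whole culture, fewer cells in mitosis and less mRNA per cell cannot be told apart.

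The transfected microRNA is given first, as RefSeq lists it (GRCh38.p14), with its seed, bases 2 to 8, in capitals, because the seed decides which transcripts a microRNA pairs with.
hsa-miR-891b: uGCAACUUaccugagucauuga
The 7-mer that pairs with this seed, AAGTTGC, was in 0 of the 56 array probes for the 44 genes and in 0.393% of all 58201 gene probes. A probe samples 60 bases of a transcript, so transcripts may hold the 7-mer elsewhere. PSAT1 changed by -0.81 in HCT116 and by -1.58 in A549 on the log2 scale, miR-891b minus NC1.

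Levels are log2 processed signals from which the 75th percentile of their array was taken off, so 0 is the level at that percentile. A change is the level with miR-891b minus the level with NC1 in the same line. With 1 array a group, a change is counted as a fall or a rise when it is at least 2-fold, which is 1 on the log2 scale. Between 44.7% and 50.3% of gene probes were well above background on an array, by the mark that the scanner software sets. Both arrays of a line shared a slide, so the lines cannot be told apart from the 2 slides. Probes printed at 5 or more spots gave a median spot-to-spot SD of a change of 0.061 in HCT116 (276 probes) and 0.071 in A549 (287 probes), which covers the spots and not the cultures. The line labels were checked with marker genes: CDX2, CLDN7, CLDN3 and EPCAM were higher in HCT116 NC1, and AKR1B10, AKR1C1, ALDH1A1, ALDH3A1, NQO1 and KRT81 were higher in A549 NC1.

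In A549, 41 of the 44 mitotic genes fell at least 2-fold with miR-891b and none rose, while in HCT116 none passed 2-fold in either direction. The median change of the 44 was -1.69 in A549, with a range from -2.50 (DEPDC1) to -0.42 (CDC25B), and 0.055 in HCT116, with a range from -0.31 (LMNB1) to 0.49 (NCAPH). Over all 21335 genes measured in A549, 5.57% fell at least 2-fold and 4.0% rose, and the median change was -0.059. Over the 19105 genes measured in HCT116, 0.843% fell and 1.16% rose, and the median was -0.041. On each of the 4 arrays all 44 genes were well above background, with no saturated spot, so none of these values is a bound.

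**Figure D1:**
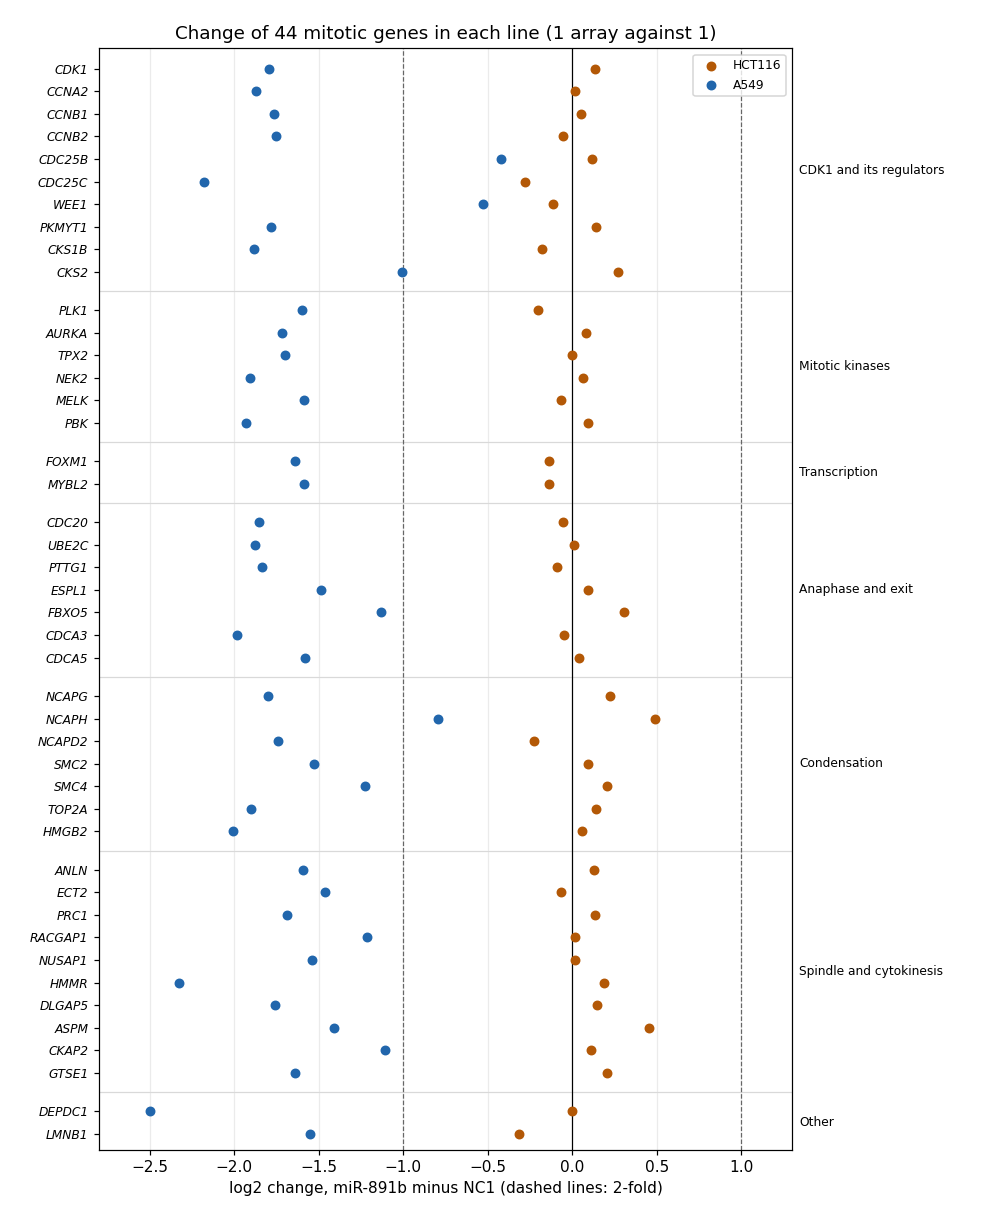
Change of each of the 44 genes with miR-891b, on the log2 scale (horizontal axis), in HCT116 and in A549, 1 array against 1, ordered by role. The A549 points lie between -2.50 and -0.42 and 41 of them are past the dashed 2-fold line at -1, whereas the HCT116 points lie between -0.31 and 0.49.

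The genes were crowded at the low end of the A549 ranking. Of the 213 genes that make up the lowest 1% of A549 changes, 20 were among the 44, and 35 were in the lowest 2% (426 genes). DEPDC1 held rank 22 from the bottom, HMMR rank 34 and CDC25C rank 61. In HCT116 none of the 44 was in the lowest 2%. The SD of the change over the 44 genes was 0.41 in A549 and 0.17 in HCT116, each wider than the spot-to-spot SD. Each was narrower than the SD over all measured genes, 0.61 in A549 and 0.38 in HCT116. The A549 change was below the HCT116 change for all 44 genes, by a median difference of -1.71. This difference between the lines could not be tested, because 4 arrays in 4 groups leave no residual degree of freedom.

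**Figure D2:**
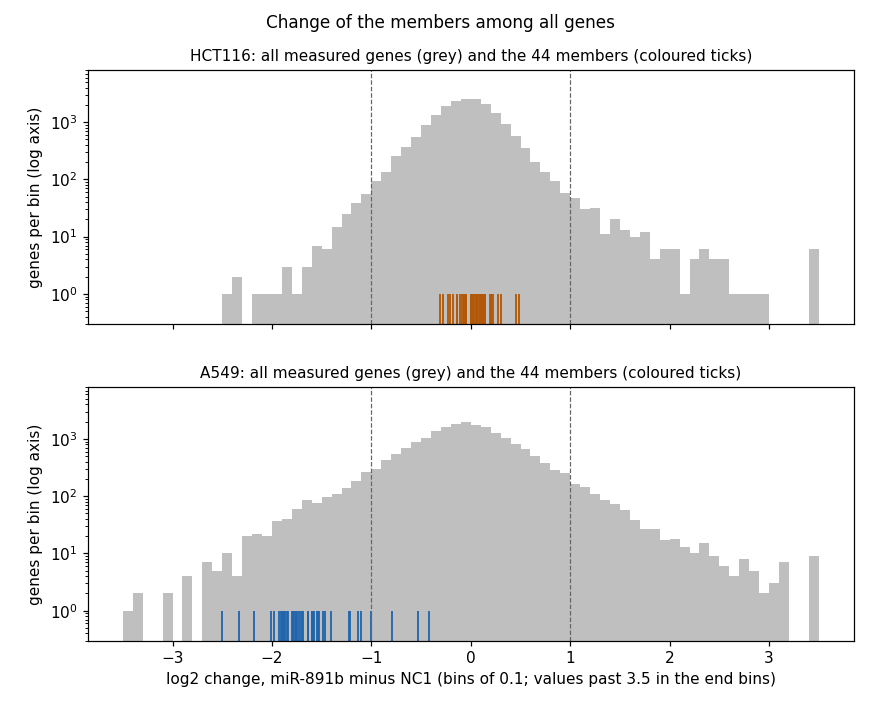
Number of genes per bin of log2 change (vertical axis, log scale) for all measured genes in HCT116 (upper panel) and A549 (lower panel), with the 44 mitotic genes as coloured ticks and 2-fold as dashed lines. The ticks cluster around 0 in HCT116 and between -2.50 and -0.42 in A549, where 35 of 44 are in the lowest 2% of all genes.

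Promoters are shown for the gene of each role with the largest A549 fall among those with an entry in the RefSeq promoter table (GRCh38.p14). They are shown because many late cell cycle genes are transcribed through the cell cycle homology region. Whether the element has a part in the A549 falls was not tested. Each runs from 250 bases before the transcript start to 10 bases after it, 5′ to 3′ along the gene. Capitals mark TTTGAA, the core of the cell cycle homology region, and CCAAT, the box read by the factor NF-Y, on either strand, where the opposite strand reads as TTCAAA and ATTGG.
CDC25C, chr5:138331795-138332054, minus strand: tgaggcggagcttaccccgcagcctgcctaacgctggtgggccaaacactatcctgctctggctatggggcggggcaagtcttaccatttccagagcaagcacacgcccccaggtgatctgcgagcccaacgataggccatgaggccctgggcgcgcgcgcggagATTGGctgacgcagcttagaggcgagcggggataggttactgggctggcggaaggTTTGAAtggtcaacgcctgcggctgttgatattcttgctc
NEK2, chr1:211675612-211675871, minus strand: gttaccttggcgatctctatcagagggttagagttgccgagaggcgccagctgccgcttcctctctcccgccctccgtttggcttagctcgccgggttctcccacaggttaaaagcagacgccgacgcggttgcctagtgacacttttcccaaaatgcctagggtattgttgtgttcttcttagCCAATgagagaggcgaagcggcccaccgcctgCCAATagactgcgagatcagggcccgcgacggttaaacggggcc
MYBL2, chr20:43666864-43667123, plus strand: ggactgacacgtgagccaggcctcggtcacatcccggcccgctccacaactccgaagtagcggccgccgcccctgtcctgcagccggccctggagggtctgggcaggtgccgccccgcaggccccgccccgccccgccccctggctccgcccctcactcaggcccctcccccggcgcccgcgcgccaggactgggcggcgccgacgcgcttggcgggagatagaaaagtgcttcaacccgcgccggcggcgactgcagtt
CDCA3, chr12:6851277-6851536, minus strand: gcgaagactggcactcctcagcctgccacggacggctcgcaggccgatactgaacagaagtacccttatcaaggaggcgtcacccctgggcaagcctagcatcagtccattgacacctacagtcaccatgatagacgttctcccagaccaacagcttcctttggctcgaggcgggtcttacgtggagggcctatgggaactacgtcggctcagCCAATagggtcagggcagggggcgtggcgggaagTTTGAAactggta
TOP2A, chr17:40417887-40418146, minus strand: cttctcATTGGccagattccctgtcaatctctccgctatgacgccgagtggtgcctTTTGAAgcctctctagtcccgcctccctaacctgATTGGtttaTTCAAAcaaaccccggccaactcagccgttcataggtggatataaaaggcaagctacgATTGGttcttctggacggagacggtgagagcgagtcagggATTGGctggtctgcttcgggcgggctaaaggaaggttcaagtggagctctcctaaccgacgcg
HMMR, chr5:163460382-163460641, plus strand: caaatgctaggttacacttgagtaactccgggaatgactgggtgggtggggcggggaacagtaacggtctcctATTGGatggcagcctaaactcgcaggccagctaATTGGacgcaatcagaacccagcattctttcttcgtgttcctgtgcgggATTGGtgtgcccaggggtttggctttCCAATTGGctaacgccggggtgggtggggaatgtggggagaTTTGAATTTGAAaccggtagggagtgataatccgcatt
DEPDC1, chr1:68497073-68497332, minus strand: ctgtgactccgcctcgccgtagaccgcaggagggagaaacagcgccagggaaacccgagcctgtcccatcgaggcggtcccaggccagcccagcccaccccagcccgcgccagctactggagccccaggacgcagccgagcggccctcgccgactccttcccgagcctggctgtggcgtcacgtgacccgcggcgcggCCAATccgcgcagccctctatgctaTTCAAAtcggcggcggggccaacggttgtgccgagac
CDC25C has 4 listed starts, and the start shown is the one whose window held both elements. Its TTTGAA begins 30 bases before the start, and that of HMMR appears in 2 adjoining copies, 28 and 22 bases before it. In DEPDC1 the element begins 27 bases before the start on the opposite strand, and in CDCA3 it begins 3 bases before. In HMMR a CCAAT and its reverse overlap as CCAATTGG. NEK2 shows 2 CCAAT boxes and no TTTGAA, and the MYBL2 window holds neither.

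The promoter table had an entry for 35 of the 44 genes. TTTGAA was found, on either strand and anywhere from 250 bases before to 50 bases after a listed start, in 24 of the 35 (68.6%), against 18.2% of all 27305 genes in the table and 14.2% of the 11118 that were measured in A549. CCAAT was in 27 of 35 (77.1%), against 39.7% and 42.4%. Both elements were in 20 of 35 (57.1%), against 7.26% and 5.88%. A short form of the E2F element, GCGGGAA, was in 5 of 35 (14.3%), against 7.82% and 11.8%. A match of letters is a description and not a binding site. High shares of these elements go with a list of late cell cycle genes whatever the arrays show, so they do not bear on the changes. Genes with more listed starts have more chances of a match, and by single windows TTTGAA was in 27 of the 48 of these genes (56.2%) and in 15.2% of all.

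The A549 changes of the 35 genes were also set out by whether the window held the elements, as a description with no test. The 24 genes with TTTGAA had a median change of -1.71 (range -2.50 to -1.01) and the 11 without it had -1.59 (range -1.91 to -0.42). All 24 with TTTGAA were at least 2-fold lower, the weakest being CKS2. Of the 11 without it, CDC25B (-0.42) and NCAPH (-0.79) stayed inside 2-fold, and the other 9 ranged from NEK2 (-1.91) to CKAP2 (-1.11). WEE1, also inside 2-fold, had no promoter entry. After normexp with quantile normalization, CKS2, FBXO5 and NCAPG with TTTGAA missed 2-fold, as did MYBL2 and CKAP2 without it. By CCAAT the medians were -1.76 for the 27 genes with it and -1.58 for the 8 without, and by both elements together they were -1.75 for 20 genes and -1.59 for 15. By GCGGGAA the medians were -1.80 for 5 genes with it and -1.62 for 30 without. Across all genes measured in A549, the 654 with both TTTGAA and CCAAT had a median change of -0.13 and the other 10464 had -0.043. Those 654 include the 20 mitotic genes with both. The 1317 genes with GCGGGAA had -0.14 and the 9801 without it had -0.037, so such a difference was not particular to TTTGAA and CCAAT. In HCT116 the 24 mitotic genes with TTTGAA had a median of 0.11 and the 11 without it 0.042.

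CDK1 and most of its activators fell in A549. The CDK1 level was 3.94 in HCT116 NC1, 4.07 in HCT116 miR-891b, 4.36 in A549 NC1 and 2.56 in A549 miR-891b, so A549 miR-891b was the low array. The CDK1 probe, at chr10:62552004-62553650 (hg19, a span of 1647 bases for a 60-base probe), was printed at 10 spots. Its change over those spots was -1.79 ± 0.074 (SD, 10 spots) in A549 and 0.14 ± 0.052 (SD, 10 spots) in HCT116. CCNA2, the cyclin that acts from S phase to early mitosis, is also printed at 10 spots (chr4:122739995-122740054), and its levels were 2.75, 2.76, 2.17 and 0.30 in the same order of arrays. Its change was -1.87 ± 0.073 (SD, 10 spots) in A549 and 0.015 ± 0.096 (SD, 10 spots) in HCT116. The spots are repeats on 1 array, so the SD covers the measurement of a spot and not the cultures, and both A549 falls were far larger than it.

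The B-type cyclins, the partners of CDK1 in mitosis proper, moved as CDK1 did. CCNB1 levels were 5.74 and 5.79 in HCT116 (NC1, then miR-891b) and 5.70 and 3.94 in A549. CCNB2 levels were 5.69 and 5.63 in HCT116 and 6.07 and 4.32 in A549. These are falls of 3.39-fold and 3.38-fold in A549, beside HCT116 changes of 0.049 and -0.057. The small CDK-binding subunits CKS1B and CKS2 differed from each other in A549, with changes of -1.88 and -1.01. CKS2 is the called gene nearest to the 2-fold line, and its change was -0.75, -0.65 and -0.95 under normexp with quantile normalization, quantile normalization and centring on the median of detected probes.

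The genes that set CDK1's inhibitory phosphates did not move as one. CDC25C, a phosphatase that activates CDK1 at mitotic entry, had levels of 0.94 and 0.66 in HCT116 and 1.11 and -1.07 in A549, a fall of 4.53-fold in A549. Its relative CDC25B, which acts earlier in G2, had levels of 4.48 and 4.60 in HCT116 and 5.20 and 4.77 in A549, a change of -0.42 in A549 that did not reach 2-fold. Of the inhibitory kinases, PKMYT1 fell 3.45-fold in A549 (levels 4.46 and 2.68), whereas WEE1 changed by -0.53 (levels 1.85 and 1.32). CDC25B and WEE1 were 2 of the 3 genes among the 44 that stayed inside 2-fold in A549. In each of these pairs one gene fell and the other stayed inside 2-fold.

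**Figure D3:**
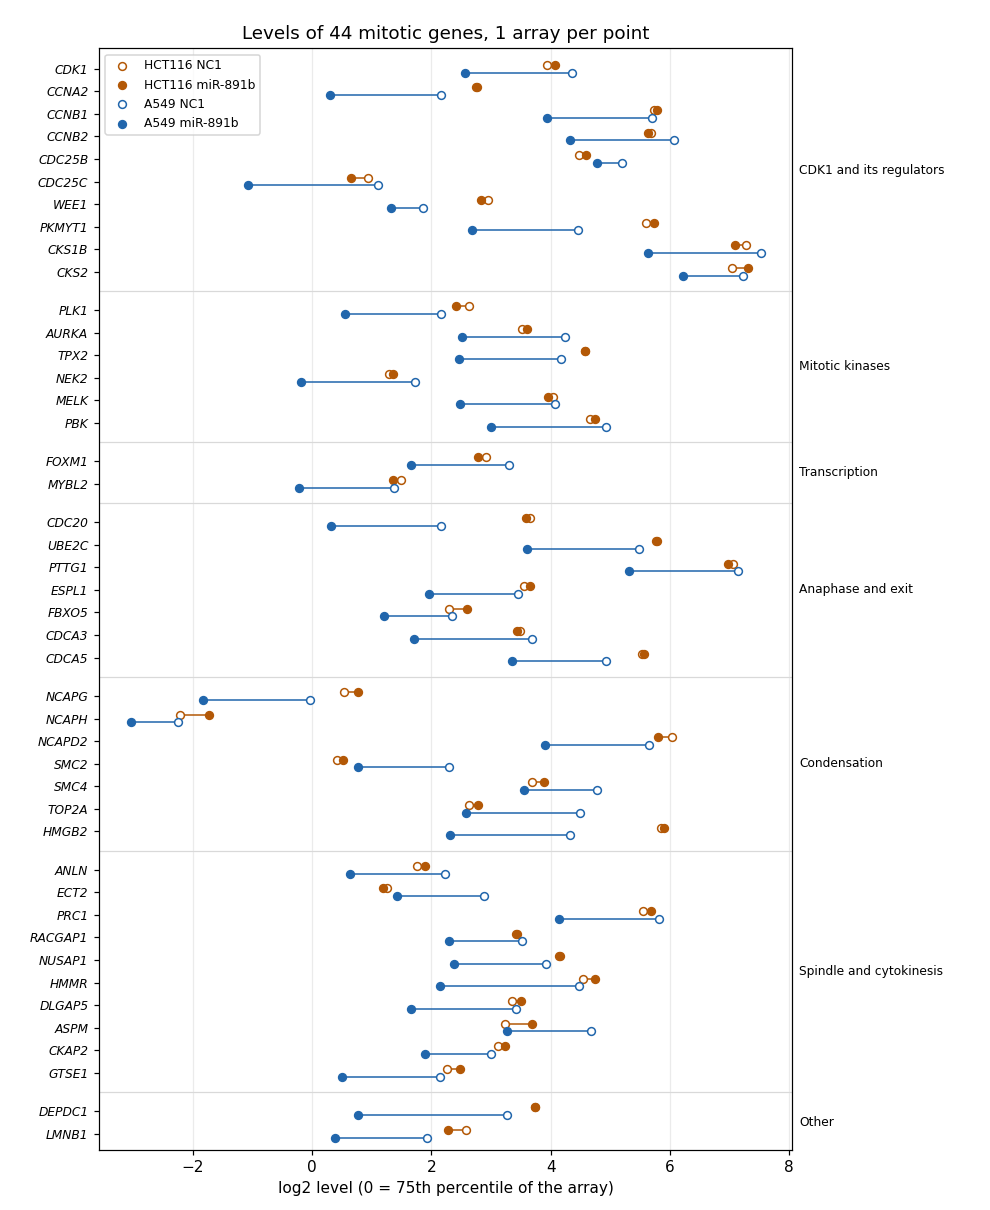
Log2 level of each gene (horizontal axis, 0 at the array's 75th percentile) on each of the 4 arrays, ordered by role, with open points for NC1 and filled points for miR-891b, and a line joining the arrays of a cell line. The A549 miR-891b point is the lowest of the 4 for 40 of 44 genes, while the HCT116 points nearly coincide.

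All 6 of the mitotic kinases and their activator fell in A549, within a narrow range from -1.93 (PBK) to -1.59 (MELK). PLK1, which drives entry, spindle assembly and cytokinesis, had levels of 2.62 and 2.42 in HCT116 and 2.16 and 0.56 in A549. AURKA, the centrosomal Aurora kinase, had 3.52 and 3.60 in HCT116 and 4.23 and 2.52 in A549. TPX2, which binds and activates AURKA on spindle microtubules, had 4.57 on both HCT116 arrays and 4.17 and 2.47 in A549. For each of them the A549 miR-891b array was the low one. The A549 falls of AURKA and TPX2 were 3.29-fold and 3.25-fold. NEK2, a centrosome kinase, fell 3.76-fold in A549, with an HCT116 change of 0.061.

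FOXM1 and MYBL2 (B-MYB), transcription factors that switch on late cell cycle genes, fell in A549 by similar amounts. FOXM1 levels were 2.91 and 2.77 in HCT116 and 3.30 and 1.66 in A549, a fall of 3.12-fold. MYBL2 levels were 1.5 and 1.36 in HCT116 and 1.37 and -0.22 in A549, a change of -1.59. Each changed by -0.14 in HCT116. The MYBL2 fall missed 2-fold after normexp with quantile normalization.

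All 7 genes of anaphase and mitotic exit fell in A549, with a median of -1.83 and a range from -1.98 (CDCA3) to -1.13 (FBXO5). CDC20, which activates the anaphase-promoting complex, had levels of 3.65 and 3.59 in HCT116 and 2.17 and 0.32 in A549. UBE2C, the ubiquitin-conjugating enzyme of that complex, had 5.77 and 5.78 in HCT116 and 5.48 and 3.61 in A549. PTTG1 (securin), which holds separase inactive until anaphase, had 7.06 and 6.97 in HCT116 and 7.15 and 5.31 in A549. The 3 genes therefore fell 3.61-fold, 3.67-fold and 3.57-fold in A549, with HCT116 changes between -0.089 and 0.010. ESPL1 (separase), the protease that cuts cohesin, fell 2.81-fold, and CDCA5 (sororin), which protects cohesin until then, fell 2.99-fold. FBXO5 (EMI1), an inhibitor of the anaphase-promoting complex, had the smallest A549 fall of the 7, 2.19-fold, which missed 2-fold after normexp with quantile normalization, and the highest HCT116 change of them, 0.30.

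Of the 7 condensation genes, 6 fell in A549. TOP2A, the topoisomerase that untangles sister chromatids, had levels of 2.64 and 2.78 in HCT116 and 4.49 and 2.59 in A549. The A549 NC1 array was the high one, and the A549 miR-891b level lay close to the HCT116 levels. HMGB2, a chromatin protein abundant in dividing cells, had 5.84 and 5.90 in HCT116 and 4.32 and 2.31 in A549, a fall of 4.02-fold. Among the condensin subunits, the A549 changes were -1.80 for NCAPG, -1.74 for NCAPD2, -1.53 for SMC2, -1.22 for SMC4 and -0.79 for NCAPH. SMC2 and SMC4 are the ATPase core that condensins I and II share, and NCAPG, NCAPH and NCAPD2 belong to condensin I. NCAPH was the dimmest of the 44, with processed signals of 11.8, 17.3, 15.7 and 9.0 on the 4 arrays, and its A549 change shrank to -0.11 after normexp with quantile normalization. The NCAPG fall also missed 2-fold in that setting.

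The 10 spindle and cytokinesis genes all fell in A549, with a median of -1.57. HMMR, a spindle-associated protein, had levels of 4.55 and 4.74 in HCT116 and 4.47 and 2.14 in A549, the second largest fall of the 44 at 5.02-fold. DLGAP5, which stabilises the microtubule fibres at kinetochores, fell 3.39-fold, and PRC1, which bundles microtubules of the central spindle, fell 3.22-fold. Of the cytokinesis genes, ANLN, a scaffold of the contractile ring, fell 3.02-fold, ECT2, the exchange factor that activates RhoA there, fell 2.76-fold, and RACGAP1, its partner at the central spindle, fell 2.32-fold. GTSE1, NUSAP1 and ASPM, which act on spindle microtubules, fell 3.11-fold, 2.91-fold and 2.65-fold. CKAP2, another spindle protein, had the smallest fall of the 10 at 2.15-fold, and missed 2-fold after normexp with quantile normalization. In HCT116, 9 of these 10 changes were above 0. The largest was that of ASPM, 0.45, with 0.38 at a second probe, and neither reached 2-fold.

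DEPDC1 and LMNB1 complete the list. DEPDC1, a DEP domain protein, had levels of 3.75 and 3.74 in HCT116 and 3.26 and 0.76 in A549, the largest fall of the 44 at 5.66-fold. Its second probe gave a smaller A549 change, -1.70. LMNB1 (lamin B1), of the nuclear lamina that is taken apart in mitosis, had 2.58 and 2.27 in HCT116 and 1.93 and 0.38 in A549, a fall of 2.93-fold. Of the other lamina and envelope genes, 0 of 10 measured passed 2-fold in A549, with a median of -0.46 and the lowest value at TMPO, -0.92. Over all genes measured in A549, 5.57% fell and 4.0% rose at least 2-fold.

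A second probe was available for 12 of the 44 genes. In A549, 11 of those probes were well above background on both arrays, 10 of them were also at least 2-fold lower, and they differed from the brighter probe of the gene by a median of 0.16. The exception was a dim CDK1 probe at chr10:62546632-62546691, with -0.90. CCNB1 gave -1.76 and -1.79 at its 2 probes, CKS1B gave -1.88 and -1.89, and PLK1 gave -1.60 and -1.75. In HCT116, 10 second probes were measured and 0 passed 2-fold.

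On the control arrays these genes differed between the lines in both directions, at counts near or below the share over all genes. The A549 NC1 minus HCT116 NC1 difference had a median of 0.049 over the 44. It passed 2-fold for 9 genes, 5 higher in A549 and 4 lower, where 11.1% of all 19217 genes measured on both were higher and 16.2% were lower. Higher in A549 NC1 were SMC2 (1.88), TOP2A (1.85), ECT2 (1.63), ASPM (1.43) and SMC4 (1.09). Lower were HMGB2 (-1.52), CDC20 (-1.48), PKMYT1 (-1.13) and WEE1 (-1.10). With miR-891b the same difference had a median of -1.62, and 38 of the 44 genes were at least 2-fold lower in A549, where 20.7% of the 18576 genes measured on both miR-891b arrays were. Across the 44 genes the A549 and HCT116 changes had a Pearson r of 0.288 and a Spearman rho of 0.217. This is a description across genes that share the same arrays, and genes are not independent replicates.

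Other cell cycle genes were taken as lists, apart from the 44. In 3 of these lists most genes fell in A549, where 5.57% of all measured genes fell at least 2-fold. At least 2-fold lower were 18 of 21 kinetochore and checkpoint genes (median -1.62, NUF2 lowest at -2.25), 11 of 12 mitotic kinesins (median -1.62, KIF15 lowest at -2.05) and 19 of 20 replication genes (median -1.55, MCM2 lowest at -2.40). Their HCT116 medians were 0.10, 0.057 and -0.058. In HCT116, 1 gene of the 3 lists passed 2-fold, CENPI at 1.11, where 1.16% of all measured genes rose at least 2-fold. After normexp with quantile normalization the replication count was 12, beside 1.95% of all genes measured in A549, and CENPI no longer passed 2-fold.

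In the other lists fewer genes fell in A549, where 5.57% of all measured genes fell at least 2-fold and 4.0% rose. A count of 0 or 1 in lists this small does not set a list apart from other genes. Of the anaphase-promoting complex list, 1 of 14 genes was at least 2-fold lower, UBE2S (-1.32), the ubiquitin-conjugating enzyme that extends its chains, and the median was -0.14. Of the exit phosphatases and the Greatwall pathway, 2 of 10 measured genes were lower, MASTL (the Greatwall kinase, -1.85) and CDC25A (-1.44), with a median of -0.19, and 1 was lower after normexp with quantile normalization. Condensin II and cohesin had 4 of 10 lower, led by the condensin II subunits NCAPG2 (-1.60) and NCAPD3 (-1.26), while STAG2 of cohesin changed by 0.12. That count was 1 after normexp with quantile normalization and 2 with median centring. The MuvB and DREAM list, a complex that represses late cell cycle genes in resting cells, had 3 of 11 lower, among them LIN9 (-1.56) and RBL1 (-1.51), while E2F5 changed by 0.53. Of 9 measured G1 cyclins, their kinases and inhibitors, CCND1 fell (-1.61) and CDKN1C, which encodes the inhibitor p57, rose (1.31). CDKN1A, which encodes p21, changed by -0.28. In these 5 lists 0 genes passed 2-fold in HCT116.

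**Figure D4:**
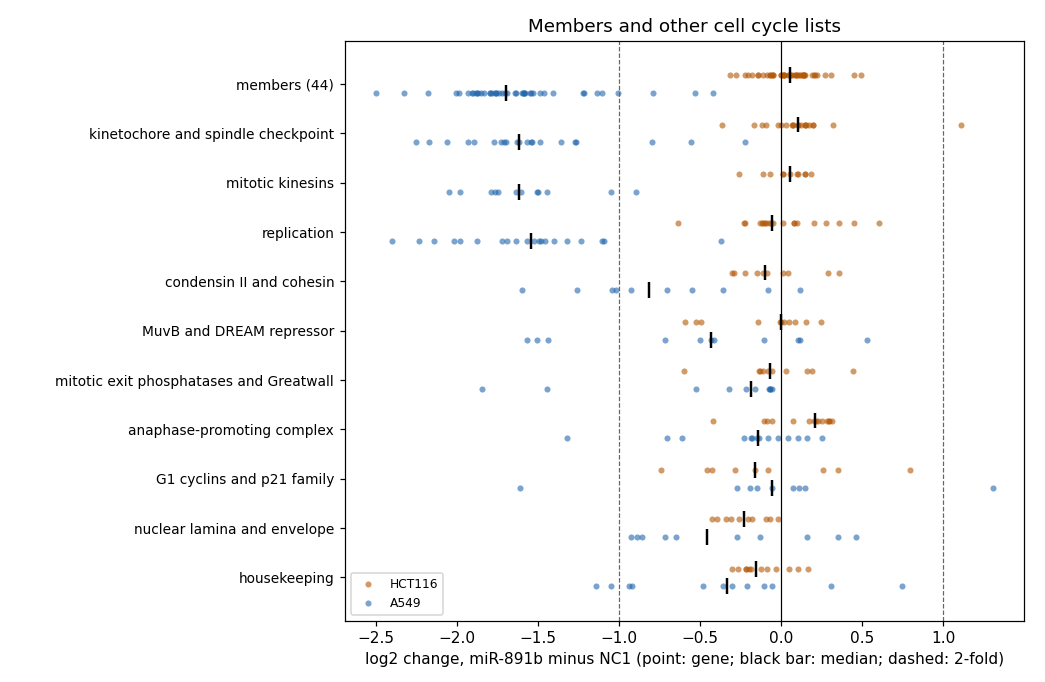
Log2 change with miR-891b (horizontal axis) of the 44 genes and of 10 other lists, 1 point per measured gene, with black bars for medians and dashed lines at 2-fold. In A549 the kinetochore, kinesin and replication lists lie near the 44 (medians -1.62, -1.62 and -1.55 beside -1.69), and the anaphase-promoting complex and G1 lists lie near 0.

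Genes often used as references varied too. Beside 5.57% of all genes measured in A549, 2 of 12 housekeeping genes were at least 2-fold lower there, TBP (-1.14) and GAPDH (-1.05). The median of the 12 was -0.33, with -0.16 in HCT116. The count was 0 after normexp with quantile normalization, and 1 with quantile normalization and with median centring. Of 9 fibroblast markers, COL1A2, COL3A1, DCN and FAP were not well above background on any array. The summed signal of the 9 was 322 in A549 NC1 and 789 in A549 miR-891b, carried mostly by LUM (153 and 668), and 147 and 128 in HCT116. The summed signal of 4 endothelial markers was 30.5 and 31.2 in A549 and no higher than 36.8 in HCT116. That of 4 leukocyte markers was 229 and 168 in A549, mostly CD14 (195 and 140), and 35.6 and 35.4 in HCT116. The part of other cell types in the A549 falls was not tested.

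Parts of some arrays carried stray signal, where spots that were dim elsewhere were well above background. In A549 such areas held 0.0213% of gene spots with NC1 and 1.83% with miR-891b, and in HCT116 they held 2.20% with NC1 and 10.5% with miR-891b. Of the 44 genes, 10 had a spot in such an area on some array. The only probes of CDC20, UBE2C, CDC25B and LMNB1 lay inside such areas on HCT116 miR-891b. The HCT116 changes given for these genes therefore have no value outside stray signal. On both A549 arrays their probes lay outside such areas, so their A549 changes are not affected in this way. A spot inside such an area on any array was then left out in both lines, and 40 of the 44 genes had a probe left. Of these, 38 fell at least 2-fold in A549 and 0 passed 2-fold in HCT116, with medians of -1.69 and 0.055. DEPDC1 was then represented by its second probe, with -1.70 in A549 and -0.56 in HCT116.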

How the data were processed

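Total RNA (100 ng) was labelled with Cy3 and hybridised to 1-colour Agilent arrays, per the labels. Per the file headers and the submitters' processing notes, scans were quantified with Agilent Feature Extraction 11.5.1.1, with background subtraction and detrending within an array and probe coordinates on hg19. The deposited scanner files hold linear intensity, not scaled between arrays. The deposited processed table holds the authors' log2 values, with no statement of how they were made. On no array was their median difference from the main setting over 0.0069.

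Spots marked as outliers were left out, log2 signals averaged per probe, and each array's 75th percentile over gene probes (signals 54.9, 57.0, 74.8 and 74.2 in the order HCT116 NC1, HCT116 miR-891b, A549 NC1, A549 miR-891b) subtracted. Measured in a line means that both arrays had the gene's probe well above background. Alternatives were quantile normalization, normexp (offset 50) with quantile normalization (limma 3.58.1, R 4.3.3), median centring, the authors' values, means over probes, other filters and folds, and spots outside stray-signal areas. Such an area is one where, within 10 rows and columns, at least 10% of gene spots dim elsewhere were bright on that array. Other values came from Python 3.11.15, numpy 2.4.6 and pandas 2.3.3. The caller was tested on simulated data with planted changes past 2-fold. The simulation held no variation between cultures, so it does not show how far a 2-fold call would repeat. The 44 genes, the lists, the stray-signal limit and the folds were chosen with earlier results of these data known. All 44 genes are named, and of each list genes among the 2 lowest and 2 highest changes in a line. The labels do not describe culture replicates. With 4 arrays, precision is limited by their number.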

Additional observations from a re-analysis of the deposited data

Results flagged for a closer look

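The median change of the 44 genes was -1.69 in A549 and 0.055 in HCT116, and the A549 median minus the HCT116 median was -1.75. This difference was not tested. The HCT116 median was smaller than the HCT116 spot-to-spot SD of 0.061, and 16 of the 44 genes were below 0 there.

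Negative control spots, which hold no gene and entered no comparison, were well above background on the miR-891b arrays: 11 of 308 on HCT116 miR-891b and 2 of 308 on A549 miR-891b, against 0 on each NC1 array.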

How the results depend on the processing

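No paired analysis was possible because each group has 1 array and the labels give no replicate numbers. The A549 median of the 44 genes moved by more than the spot-to-spot SD in 2 settings, to -1.34 after normexp with quantile normalization and to -1.58 with quantile normalization. The count of genes at least 2-fold lower in A549 was 36, 40, 40 and 41 with normexp, quantile normalization, median centring and the authors' values, and 23 of the 24 genes with a probe at one end of the array, a restriction added after the data were seen. At 1.5-fold and 3-fold it was 42 and 29, beside 15.3% and 1.53% of all genes. Of 266 recomputed A549 values of the 41 genes, 259 were still at least 2-fold lower, and none of the 284 values of all 44 changed sign. Many of these values repeat the main one and are no separate support. For the 32 genes with 1 probe, the mean over probes is the main value, and the subsets of spots keep its scaling. The losses came only from normexp with quantile normalization (5), quantile normalization (1) and median centring (1). In HCT116 no gene passed 2-fold in any of the 7 other normalizations, value sources or array positions, and 14 of 284 recomputed changes had the other sign. Over all genes, the counts lower and higher were 13 and 27 in HCT116 and 416 and 346 in A549 with normexp, 1434 and 2788 in HCT116 and 3080 and 2933 in A549 with no filter on dim probes, and 145 and 140 in HCT116 outside stray-signal areas, against 161 and 221, and 1188 and 854. No scaling moved the median of all genes by over 0.1. Of 36 recomputed A549 NC1 minus HCT116 NC1 values of the 9 called genes, 33 stayed past 2-fold; those of WEE1 and PKMYT1 did not after normexp, nor did PKMYT1 with quantile normalization. With promoters cut to 150 bases before the start, both elements were in 54.3% of the 35 genes and in 3.65% of all. The dimmest of the 44, NCAPH, and NCAPG changed by -0.11 and -0.70 in A549 with normexp, against -0.79 and -1.80.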
